A study of Danio rerio with 6 samples.

Results

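The genes described here are 8 tetraspanins, cd9a, cd9b, cd63, cd81a, cd81b, cd82a, cd82b and cd151, and the lysosomal membrane protein gene laptm4b, in atrioventricular canal cardiomyocytes of adult zebrafish. They were taken by exact gene symbol, and all 9 were present among the 25281 genes of the count tables. The canal joins atrium to ventricle, holds the valves and slows the passing beat. RNA-seq was made from 3 GFP-positive libraries, named β-cat ON in the labels, and 3 GFP-negative libraries, named β-cat OFF. The study's title names the groups as canal cardiomyocytes in which Wnt/β-catenin signalling is activated and the others.

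All fish, aged 4 to 8 months, carried the same 3 transgenes. In Tg(myl7:GAL4db-TCFΔC-2A-mCherry) the cardiomyocyte promoter myl7 drives a fusion of the GAL4 DNA-binding domain with a shortened TCF, together with mCherry. Tg(UAS:EGFP) is the EGFP reporter paired with that fusion, and Tg(myl7:NLS-mCherry) marks cardiomyocyte nuclei. The GFP-positive cells were sorted as mCherry-positive and EGFP-positive. For the GFP-negative libraries a further label and the protocol name an mCherry-negative, EGFP-positive sort, which conflicts with their titles, so that gate is not settled and the groups follow the titles. No label ties a replicate to its own fish or sort, so the p-values below reflect the spread of these samples alone, part of which may be technical.

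Tetraspanins are small proteins that cross the membrane repeatedly and gather integrins, immunoglobulin-type proteins and proteases into patches of the cell surface. CD9, CD81, CD82 and CD151 lie mainly at the surface, whereas CD63 is concentrated in late endosomes and lysosomes and is a common marker of secreted vesicles. LAPTM4B, which is no tetraspanin, lies in late endosomes and lysosomes, and in human cells it brings an amino acid transporter to the lysosome. cd9a and cd9b, cd81a and cd81b, and cd82a and cd82b are pairs of zebrafish copies of 1 mammalian gene each.

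Libraries held 14783352 to 19750914 counts. Mitochondrially encoded genes held 35.6% to 44.9% of GFP-positive and 11.9% to 15.7% of GFP-negative counts. Tested genes at 0 numbered 725 to 1270 in GFP-positive and 4 to 66 in GFP-negative libraries. Levels are CPM, counts per 1e6 counts of a library after TMM scaling, which corrects for such differences in composition. The cardiomyocyte gene myl7 stood at 14594 ± 1704 CPM in GFP-positive and 28794 ± 5232 CPM in GFP-negative libraries (SD, n = 3 each), so its transcript was abundant in both groups. Transcript lengths were not used here, so each gene is compared between libraries and not with other genes. In bulk samples such as these, fewer cells of a type and less RNA per cell cannot be told apart.

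In GFP-positive libraries laptm4b was 6.98-fold, cd9a 3.16-fold and cd63 1.95-fold higher than in GFP-negative libraries, and cd82a was 2.95-fold lower. cd81a was 1.24-fold higher, the smallest ratio in that direction, and the counts of cd9b, cd81b and cd82b were low and scattered. The genes were selected on their levels in GFP-positive against GFP-negative libraries, so these differences are descriptions with no test. All 9 passed the expression filter, 7 with a positive and 2 with a negative log2 fold change. Of the 9, 2 were called at an edgeR adjusted p under 0.05, cd9a and laptm4b, both higher. Of the 13490 genes tested, 4.21% were called, 2.08% as higher and 2.13% as lower. The groups did not overlap for 5 members, 4 higher and 1 lower, where this held for 29.6% of all tested genes, 12.1% higher and 17.6% lower. Nothing is read from these shares, because the same contrast chose the genes.

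**Figure D1:**
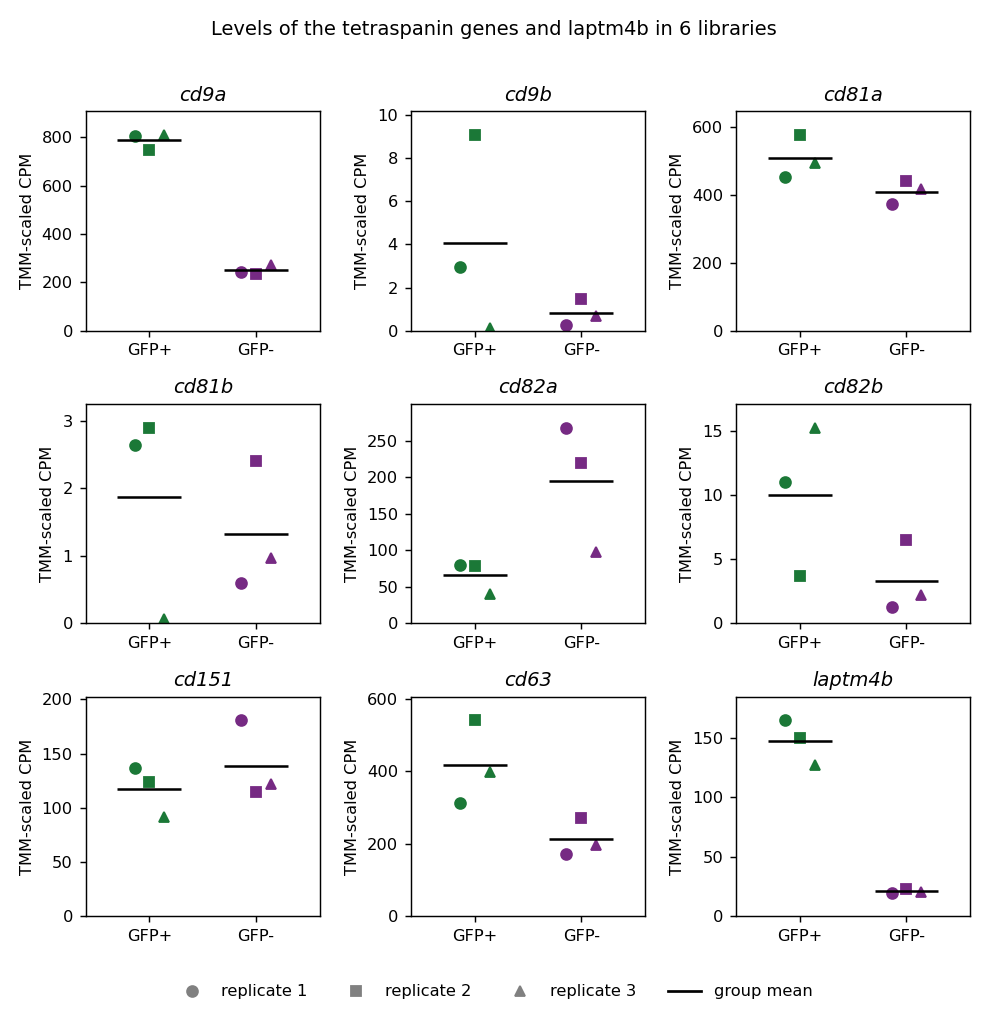
Level of each gene in every library, in TMM-scaled CPM on axes that start at 0, with GFP-positive libraries left of GFP-negative ones and a bar at the group mean. The groups stand apart for laptm4b (127 to 165 against 19.8 to 22.9 CPM) and cd9a (749 to 810 against 236 to 271 CPM), and they overlap for cd151, cd9b, cd81b and cd82b.

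Among the surface tetraspanins, cd9a (ENSDARG00000005842), whose mammalian counterpart CD9 is needed for sperm-egg fusion in mice, had the steadiest levels. It stood at 807, 749 and 810 CPM in GFP-positive replicates 1, 2 and 3, against 242, 236 and 271 CPM in GFP-negative replicates 1, 2 and 3. Every GFP-positive library was above every GFP-negative one, with a gap wider than the spread within either group. The means were 788 ± 34.4 CPM in GFP-positive and 250 ± 19.0 CPM in GFP-negative libraries (SD, n = 3 each), a log2 fold change of 1.66 ± 0.14 SE. The SD of log2 CPM of cd9a was 0.06 among GFP-positive libraries, where the median gene had 0.91, and 0.11 among GFP-negative libraries, where the median gene had 0.28. Of the 13490 genes, 1052 had a larger log2 fold change than cd9a.

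The other copy, cd9b (ENSDARG00000016691), was counted only rarely. It had 38, 141 and 2 counts in GFP-positive replicates 1, 2 and 3, against 4, 29 and 15 counts in GFP-negative replicates 1, 2 and 3. GFP-positive replicate 2 was the highest and GFP-positive replicate 3 the lowest of all 6 libraries, so the groups overlapped fully. The log2 fold change was 2.32 ± 1.46 SE and lay between 0.92, without GFP-positive replicate 2, and 3.04, without GFP-negative replicate 2, so its size rested on single libraries.

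cd81a (ENSDARG00000036080), counterpart of the close CD9 relative CD81, differed little. Its levels were 453, 576 and 494 CPM in GFP-positive replicates 1, 2 and 3, against 371, 439 and 415 CPM in GFP-negative replicates 1, 2 and 3. The groups did not overlap, but the lowest GFP-positive and the highest GFP-negative library were close together. The log2 fold change of 0.31 ± 0.16 SE became 0.14 without a composition factor, a setting that put the median of all genes at -0.16, against 0.01 with TMM. Its copy cd81b (ENSDARG00000022437) had 34, 45 and 1 counts in GFP-positive replicates 1, 2 and 3, against 9, 48 and 21 counts in GFP-negative replicates 1, 2 and 3. These overlapped fully, and the sign of the log2 fold change of cd81b (0.49 ± 1.32 SE) turned with limma-voom, to -0.37, and with the replicate number as a block, to -0.13. Those settings put the median of all genes at -0.36 and -0.29, against 0.01 in the main fit. No other member changed sign with them, and the cause of the turn was not tested. The log2 fold change of cd81b was 0.02 without GFP-positive replicate 2 and 1.23 without GFP-negative replicate 2.

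cd82a (ENSDARG00000019098), whose mammalian counterpart CD82 is known as a suppressor of metastasis, was the one member that was lower in every GFP-positive library. It stood at 79.4, 79.0 and 40.3 CPM in GFP-positive replicates 1, 2 and 3, against 268, 220 and 98.0 CPM in GFP-negative replicates 1, 2 and 3. Replicate 3 was the lowest in both groups, and GFP-negative replicate 3 lay nearer to the GFP-positive libraries than to the other GFP-negative ones. The log2 fold change was -1.56 ± 0.42 SE and lay between -1.90 and -1.25 over all alternatives. The copy cd82b (ENSDARG00000026070) had 142, 57 and 234 counts in GFP-positive replicates 1, 2 and 3, against 19, 130 and 48 counts in GFP-negative replicates 1, 2 and 3. Its groups overlapped through replicate 2 of each, and its log2 fold change was 1.58 ± 0.85 SE, opposite in sign to that of cd82a. Without GFP-negative replicate 2 it was 2.50.

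cd151 (ENSDARG00000038288), counterpart of a tetraspanin that binds laminin-binding integrins, did not stand apart between the groups. Its levels were 137, 124 and 91.9 CPM in GFP-positive replicates 1, 2 and 3, against 181, 115 and 122 CPM in GFP-negative replicates 1, 2 and 3. GFP-positive replicates 1 and 2 lay within the range of the GFP-negative libraries. The log2 fold change was -0.24 ± 0.25 SE and turned to 0.01 without GFP-negative replicate 1.

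cd63 (ENSDARG00000025147), the endosomal tetraspanin, was higher in GFP-positive libraries with more spread than cd9a. It stood at 312, 539 and 398 CPM in GFP-positive replicates 1, 2 and 3, against 171, 272 and 197 CPM in GFP-negative replicates 1, 2 and 3. The groups did not overlap, and the order of the replicates was the same in both, with replicate 2 highest and replicate 1 lowest. The log2 fold change was 0.97 ± 0.26 SE and lay between 0.79 and 1.18 over all alternatives. Summed markers of macrophages and other leukocytes, cells in which CD63 is abundant in mammals, were also highest in replicate 2 of each group, but lowest in replicate 3. They summed to 310, 912 and 200 CPM in GFP-positive replicates 1, 2 and 3, against 298, 735 and 237 CPM in GFP-negative replicates 1, 2 and 3. Most of this sum was cd74a and cd74b, at means of 228 and 120 CPM in GFP-positive and 216 and 81.7 CPM in GFP-negative libraries. The ratio of cd63 to the sum was 1.20 ± 0.718 in GFP-positive and 0.592 ± 0.230 in GFP-negative libraries (SD, n = 3 each), with overlap. Of 9 tested markers of this kind 1, lyz, was called, as lower (edgeR adjusted p = 0.0496), where 2.13% of all tested genes were called lower. It had no count in any GFP-positive library and only 18, 31 and 30 counts in GFP-negative replicates 1, 2 and 3. Tested genes at 0 were also more numerous in GFP-positive libraries (725 to 1270, against 4 to 66). The part of these cells in the level of cd63 was not tested.

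laptm4b (ENSDARG00000035870) had the largest log2 fold change of the 9 genes with all 6 libraries in the fit; without GFP-negative replicate 2 that of cd9b (3.04) was larger than that of laptm4b (2.85). Its levels were 165, 150 and 127 CPM in GFP-positive replicates 1, 2 and 3, against 19.8, 22.9 and 20.6 CPM in GFP-negative replicates 1, 2 and 3. The lowest GFP-positive library was far above the highest GFP-negative one. The means were 147 ± 18.8 CPM in GFP-positive and 21.1 ± 1.58 CPM in GFP-negative libraries (SD, n = 3 each), a log2 fold change of 2.80 ± 0.19 SE. Over the 6 fits that left out 1 library it lay between 2.77 and 2.89, and 206 of 13490 genes had a larger log2 fold change. Its relatives laptm4a and laptm5, lysosomal membrane proteins of the same family, had log2 fold changes of 0.19 ± 0.17 SE and 0.43 ± 0.79 SE, which did not pass the edgeR test (adjusted p = 0.690 and 0.887).

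**Figure D2:**
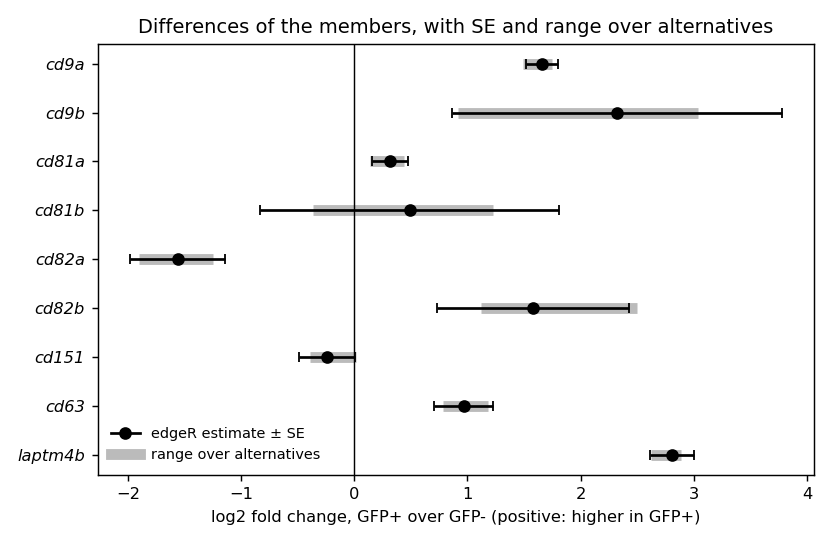
Log2 fold change of each gene, GFP-positive over GFP-negative, from the fit across all 13490 genes; black bars are the SE and grey bars the range over all alternatives. laptm4b (2.80) and cd9a (1.66) have narrow ranges, cd82a (-1.56) lies on the negative side throughout, and cd81b and cd151 cross 0.

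Ratios of counts within a library need no scaling between libraries. Each is a ratio of counts uncorrected for transcript length, so its value is compared between libraries only. For every count of cd81a there were 1.78, 1.30 and 1.64 counts of cd9a in GFP-positive replicates 1, 2 and 3, against 0.653, 0.537 and 0.653 in GFP-negative replicates 1, 2 and 3. The ratio of cd63 to cd81a was 0.811 ± 0.125 in GFP-positive and 0.518 ± 0.0877 in GFP-negative libraries, and that of cd82a to cd81a was 0.131 ± 0.0471 in GFP-positive and 0.486 ± 0.243 in GFP-negative libraries (SD, n = 3 each). Neither ratio overlapped between the groups. Relative to cd81a, cd9a and cd63 were thus higher and cd82a was lower in each GFP-positive library, whatever the library scaling. The ratio of laptm4b to laptm4a was 0.875 ± 0.176 in GFP-positive and 0.141 ± 0.00525 in GFP-negative libraries, with no overlap.

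**Figure D3:**
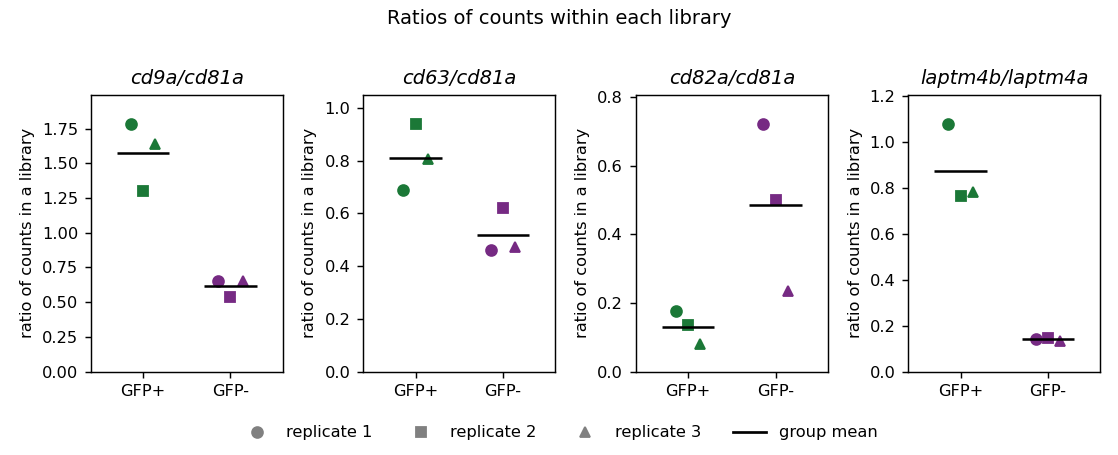
Ratio of the counts of each gene pair within each library, with GFP-positive libraries left of GFP-negative ones, a symbol for each replicate and a bar at the group mean. cd9a/cd81a, cd63/cd81a and laptm4b/laptm4a are higher, and cd82a/cd81a is lower, in every GFP-positive library than in all GFP-negative libraries.

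The summed level of the 8 tetraspanins was 1804, 2082 and 1850 CPM in GFP-positive replicates 1, 2 and 3, against 1235, 1291 and 1107 CPM in GFP-negative replicates 1, 2 and 3. The sums did not overlap, and cd9a took a larger part of them in each GFP-positive library. Of the summed counts, cd9a made up 41.5 ± 4.80% in GFP-positive and 20.8 ± 3.29% in GFP-negative libraries. cd82a made up 3.46 ± 1.15% in GFP-positive and 15.9 ± 6.49% in GFP-negative libraries. cd81a made up 26.5 ± 1.28% in GFP-positive and 33.9 ± 3.75% in GFP-negative libraries (SD, n = 3 each). These shares are of counts without length correction, and a gene's share falls when another's grows, so they describe the mixture and not each gene.

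**Figure D4:**
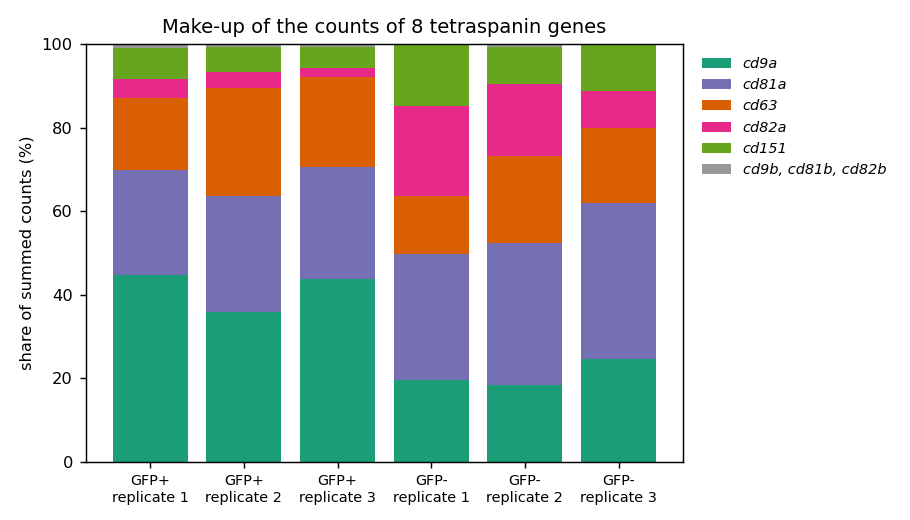
Share of each gene, in percent, in the summed counts of the 8 tetraspanins for each library, with GFP-positive libraries on the left; counts are not corrected for transcript length. The cd9a part is 36.0% to 44.7% in GFP-positive and 18.3% to 24.5% in GFP-negative libraries.

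Markers of non-cardiomyocytes differed between the same libraries. Of all 13490 tested genes, 2.08% were called higher and 2.13% lower. The 14 endocardium markers summed to 371 to 624 CPM in GFP-positive and 104 to 188 CPM in GFP-negative libraries, with 2 of 14 tested markers called higher. The 14 fibroblast and valve markers summed to 786 to 1172 CPM and 162 to 381 CPM in those groups, with 5 of 14 called higher. The 10 epicardium markers summed to 998 to 1598 CPM and 207 to 278 CPM, with 6 of 8 tested called higher. Most of the epicardium sum was keratin genes, krt94, krt4 and krt15, at means of 578, 225 and 210 CPM in GFP-positive libraries. One called marker, tcf21, stands in both lists. Not called were tbx18 and wt1b (edgeR adjusted p = 0.824 and 0.830). wt1a, with 3 counts over the GFP-positive and 29 over the GFP-negative libraries, was not tested. The ratio of cd9a to the summed endocardium markers was 1.64 ± 0.494 in GFP-positive and 1.80 ± 0.541 in GFP-negative libraries, and its ratio to the fibroblast and valve markers was 0.791 ± 0.206 and 1.03 ± 0.441 (SD, n = 3 each); both overlapped between the groups. Its ratio to the summed epicardium markers was lower, 0.629 ± 0.173 in GFP-positive and 1.02 ± 0.254 in GFP-negative libraries, with no overlap. The ratio of laptm4b to the summed epicardium markers, 0.115 ± 0.0184 in GFP-positive and 0.0852 ± 0.0133 in GFP-negative libraries, also overlapped. Its ratio to the summed endocardium markers, 0.308 ± 0.117 in GFP-positive and 0.150 ± 0.0362 in GFP-negative libraries, did not, and its ratio to the fibroblast and valve markers, 0.150 ± 0.0524 and 0.0853 ± 0.0327, did. The ratios of cd63 to all 3 sums were lower in GFP-positive libraries without overlap, for example 0.820 ± 0.0582 to the endocardium markers, against 1.47 ± 0.170 in GFP-negative libraries. The part of such cells in the levels of cd9a, laptm4b and cd63 was not tested.

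Other marker lists differed between the groups as well. The share of all tested genes called was again 2.08% higher and 2.13% lower. Erythrocyte markers summed to 1593 to 2447 CPM in GFP-positive and 510.0 to 613.9 CPM in GFP-negative libraries, with 3 of 6 tested called higher. Thrombocyte markers, from cells rich in CD9 in mammals, summed to 94.7 to 200 CPM in GFP-positive and 27.4 to 57.4 CPM in GFP-negative libraries. Of 5 tested 1 was called higher, fn1b, which the fibroblast list also holds. Most of the thrombocyte sum was fn1b, at means of 106 CPM in GFP-positive and 26.1 CPM in GFP-negative libraries. Of the 5, 4 had a positive and 1 a negative log2 fold change. The platelet receptor gene mpl had no count in any GFP-positive library, but only 4, 5 and 2 counts in GFP-negative replicates 1, 2 and 3. It was too low for the test. Smooth muscle markers summed to 548 to 971 CPM in GFP-positive and 164 to 278 CPM in GFP-negative libraries, with 2 of 4 tested called higher. Most of that sum was acta2, at means of 699 and 217 CPM in those groups. Neuron and glia markers summed to 106 to 213 CPM and 6.23 to 9.14 CPM, with 1 of 3 tested, snap25a, called higher. Most of this sum was snap25a itself, at means of 133 and 5.68 CPM, and 5 of the 8 listed markers were not tested. Cardiomyocyte markers summed to 31350 to 40959 CPM in GFP-positive and 69563 to 89949 CPM in GFP-negative libraries, with 6 of 12 called lower and 2 higher. The part of these cells in the levels of the 9 genes was not tested.

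Of the other tetraspanins, 37 of 45 listed symbols were present and 22 were tested. Of these 1 rose, 0 fell and 21 did not pass the edgeR test, where 4.21% of all tested genes were called. Their median log2 fold change was 0.43, against 0.01 over all genes tested, with 15 positive and 7 negative values. The groups did not overlap for 12 of the 22, 7 higher and 5 lower, where this held for 29.6% of all tested genes, 12.1% higher and 17.6% lower. tspan4b, counterpart of a tetraspanin known from migrasomes in mammalian cells, rose in GFP-positive libraries. It stood at 67.3, 133 and 157 CPM in GFP-positive replicates 1, 2 and 3, against 22.9, 38.4 and 23.8 CPM in GFP-negative replicates 1, 2 and 3, with no overlap (log2 fold change 2.07 ± 0.37 SE, adjusted p = 0.0311, edgeR). With GFP-positive replicate 2 left out tspan4b no longer passed (edgeR adjusted p = 0.0711), nor with GFP-negative replicate 1, 2 or 3 left out (0.180, 0.0569 and 0.150). Over all alternatives its adjusted p lay between 2.40e-06 and 0.180.

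Of 18 tested partners of tetraspanins, such as integrins, sheddases and ERM linkers, none passed the edgeR test, where 4.21% of all tested genes did. Of the 18, 8 had an unadjusted p under 0.05, 3 were called by DESeq2 and 0 by limma-voom. Of all 13490 tested genes, DESeq2 called 1667 and limma-voom 860. The share of all genes with an unadjusted p under 0.05 was not worked out, so nothing is read from that count. Their median log2 fold change was 0.60, with 12 positive and 6 negative values. cd44b, a hyaluronan receptor gene, came nearest, with 1 count over the GFP-positive and 49 over the GFP-negative libraries, a ratio of 0.0264 (exact 95% counting interval 6.56e-04 to 0.154, for counting error only; edgeR adjusted p = 0.0697). itgb1a, a β1 integrin gene, averaged 34.5 ± 10.3 CPM in GFP-positive and 12.9 ± 4.33 CPM in GFP-negative libraries (SD, n = 3 each; log2 fold change 1.42 ± 0.37 SE, edgeR adjusted p = 0.0745).

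Genes of endosomes, lysosomes and secreted vesicles, the compartments of CD63 and LAPTM4B, formed a further list. None of 41 tested passed the edgeR test, where 4.21% of all tested genes did. Of the 41, 5 had an unadjusted p under 0.05, 2 were called by DESeq2 and 0 by limma-voom. DESeq2 called 1667 and limma-voom 860 of all 13490 tested genes, and nothing is read from the unadjusted count. The median log2 fold change was 0.12, within a range of -1.28 to 2.44, with 26 positive and 15 negative values. lamp2, a major lysosomal membrane protein gene, averaged 225 ± 41.9 CPM in GFP-positive and 218 ± 26.3 CPM in GFP-negative libraries (log2 fold change 0.05 ± 0.19 SE, edgeR adjusted p = 0.956); it was picked after its values were seen. rab11bb, of recycling endosomes, and scarb2a, of the lysosomal membrane, came nearest with log2 fold changes of 2.44 ± 0.76 SE and 1.34 ± 0.47 SE (edgeR adjusted p = 0.127 and 0.173).

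The list linked to laptm4b holds amino acid transporter, mTORC1 and ubiquitin ligase genes. None of its 16 tested members passed the edgeR test, where 4.21% of all tested genes did. Of the 16, 0 had an unadjusted p under 0.05 and 0 were called by DESeq2 or limma-voom, and the median log2 fold change was -0.06. Those methods called 1667 and 860 of all 13490 tested genes. The Rag GTPase gene rragd and the ubiquitin ligase gene nedd4a came nearest, with -0.98 ± 0.48 SE and -0.78 ± 0.43 SE (edgeR adjusted p = 0.347 and 0.408). Of the transporter that LAPTM4B binds in human cells, slc3a2b had a log2 fold change of -0.06 ± 0.37 SE (edgeR adjusted p = 0.973), while slc7a5 had 2 and 7 counts over the GFP-positive and GFP-negative libraries and was not tested.

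**Figure D5:**
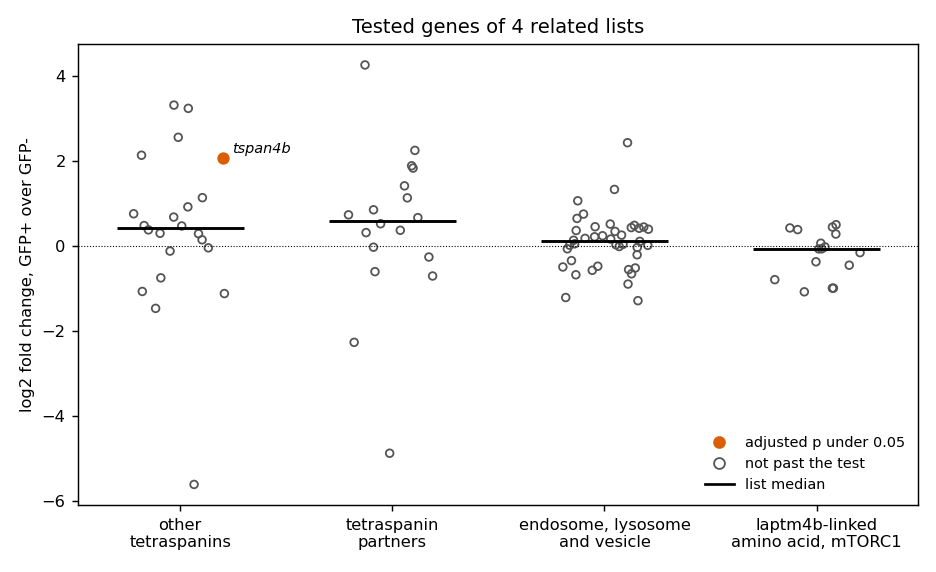
Log2 fold changes, GFP-positive over GFP-negative, of the tested genes of 4 related lists, each point a gene and each bar the list median. tspan4b (2.07) is the 1 gene past the edgeR threshold, and the medians are 0.43, 0.60, 0.12 and -0.06 from left to right.

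The genes next to the members on their chromosomes were looked up by position alone. In RefSeq's zebrafish gene table (assembly GRCz12tu, used for names and order only) all 9 members matched by symbol. cd82a lies between tp53i11a and tspan18a, and cd82b between tp53i11b and tspan18b, so the copies share their neighbourhood. tspan18a had a log2 fold change of 2.57 ± 0.87 SE (edgeR adjusted p = 0.161), opposite in sign to cd82a. On 1 side of cd9a lies vwf, the von Willebrand factor gene of endothelium and thrombocytes, at 1.56 ± 0.43 SE (edgeR adjusted p = 0.0884). The neighbours of laptm4b, rpl30 and mtdha, had log2 fold changes of -0.16 ± 0.29 SE and 0.83 ± 0.25 SE (edgeR adjusted p = 0.884 and 0.114). In that table cd9a overlaps 1 other coding gene, so its counts may hold reads that the authors' counting shared between both, and the other members overlap none.

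For the 6 members with a mean of at least 10 CPM, the genes with the most similar pattern were sought among 5848 genes, by Pearson's r of log2 CPM over the 6 libraries. The nearest to laptm4b were the troponin I gene tnni1d, ccn2a and cav2 (r = 0.998 each), and the nearest to cd9a were ddx54, wif1 and rhogc (r = 0.999, 0.998 and 0.997). These r values take in the gap between the groups, and the likeness within a group was not worked out. Among the 5848 genes, 180 had an r above 0.95 with laptm4b and 176 with cd9a. For cd63 the nearest were si:ch211-66e2.3, sh3bgrl3 and abracl, and for cd81a si:ch211-132p1.3, gpc4 and si:ch211-66e2.3, with r from 0.985 to 0.997. For cd82a they were pdk2b, smim20 and fbxl3a, and for cd151 yeats4, commd4 and plscr3b, with r from 0.972 to 0.994. With 6 libraries and so many candidates, these values describe the libraries and no more.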

How the data were processed

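RNA was sequenced from sorted cells of 6 libraries. Per the labels' protocols, collagenase (3 mg/ml, 30 min) freed the cells, SMART-Seq v4 made the cDNA and an NEBNext Ultra II Directional kit the libraries. The amplification adds no molecular identifiers, so counting intervals cover counting error only. The authors deposited raw counts, 1 whole number per gene and library, per the file headers. The aligner, counting rules, strand setting, build and annotation were not given in the sources used here.

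The count test was edgeR 4.0.16 under R 4.3.3 (filterByExpr, TMM, group as the only term, robust quasi-likelihood F test, Benjamini-Hochberg over 13490 genes, threshold 0.05). A positive log2 fold change means higher in GFP-positive libraries, and each SE is its size divided by the square root of F. The script was tested on simulated data, with 1 spread for both groups and changes set only in genes with a mean above 5 CPM. There the edgeR test called 6% of genes changed 2-fold, 40% of those changed 4-fold and 78% of those changed 8-fold. Changes of 2-fold to 4-fold were thus mostly missed there, so a list without calls is not shown to be unchanged. In the data the median SD of log2 CPM was 0.91 in GFP-positive and 0.28 in GFP-negative libraries. The simulated shares may therefore not hold for the data, nor for genes at lower levels. Alternatives used RLE, upper-quartile or no factors, other filters, DESeq2 1.42.0, limma-voom 3.58.1, a replicate block, and each library left out. No libraries were duplicates: the chi-square per degree of freedom within groups was 29.0 to 93.6.

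The members and lists were chosen with earlier results of these data known. Named genes were all members, myl7, per related list up to 4 called genes by adjusted p (the 2 nearest if none was called), and the 3 genes most like each member above 10 CPM (log2 CPM with prior count 2). laptm4a, laptm5, lamp2, slc3a2b, slc7a5 and all named marker genes other than myl7 were added after values were seen. So were the neighbours and the genes named in the closing section.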

Additional observations from a re-analysis of the deposited data

How the results depend on the processing

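The 568 called genes (280 higher, 288 lower) became 1667 with DESeq2 and 860 with limma-voom, and lay between 44 (without GFP-negative replicate 3) and 1018 (without GFP-positive replicate 3) with 1 library left out. Upper-quartile factors gave 258 higher and 450 lower calls and a median of -0.11 over all genes, and totals without a composition factor gave 196 and 507. The 1 call among other tetraspanins became 2 with upper-quartile factors, 6 with DESeq2 and 3 with limma-voom, and 0 to 5 with 1 library left out. The 0 calls among partners became 3 with DESeq2 and 1, mmp14a, with the replicate block, and those among endosome, lysosome and vesicle genes 2 with DESeq2 and 0 to 1 with 1 library left out. The cause was not tested. Same-numbered libraries deviated together with r = 0.131, 0.187 and 0.0922, and differently numbered ones had r of -0.120 to -0.0123. Thus 6 of 6 libraries correlated best with their own number. The deviations of each gene were taken from its group mean, so they sum to 0 within a group. A positive r at equal numbers therefore pushes the others below 0, and the negative values and the 6 of 6 are no separate results. The labels name no pairs, so the main fit took no pairs in spite of these values. Whether equal numbers share a source was not tested, and the block called 572 genes. The counts of cd9b, cd81b and cd82b were low, with 1 count at 0.0461 to 0.0775 CPM, and the cause of their scatter was not tested.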

Other observations

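Some relatives with few counts differed widely between the groups in counts, in both directions; they were picked after their values were seen. tspan5b, of the tetraspanin group that guides the sheddase ADAM10 in mammals, had 0, 0 and 1 counts in GFP-positive replicates 1, 2 and 3, against 26, 23 and 32 counts in GFP-negative replicates 1, 2 and 3. The ratio over the groups was 0.0160 (exact 95% counting interval 4.00e-04 to 0.0917), and the edgeR test gave an adjusted p = 0.0549. It was called with upper-quartile factors (adjusted p = 0.0489), DESeq2 (0.0304), limma-voom (0.0318) and without GFP-positive replicate 3 (0.0463), and with no other alternative. It passed the expression filter only through its GFP-negative counts and was picked on its values, so nothing is read from these calls. Too low for the test were tspan33a, with 2 and 41 counts over the GFP-positive and GFP-negative libraries (ratio 0.0632, interval 0.00740 to 0.243), and igsf8, an immunoglobulin-type partner of CD9 and CD81, with 3 and 35 counts (ratio 0.111, interval 0.0218 to 0.352). In the other direction, tspan35 had 39, 34 and 0 counts in GFP-positive replicates 1, 2 and 3, against 2, 7 and 0 counts in GFP-negative replicates 1, 2 and 3. ezra, an ERM linker gene, had 46, 5 and 5 counts in GFP-positive replicates 1, 2 and 3, against 1, 3 and 3 counts in GFP-negative replicates 1, 2 and 3. Neither passed the expression filter, so they were not tested. The same GFP-positive libraries had 725 to 1270 tested genes without a count, against 4 to 66 in GFP-negative libraries, and the part of this in these values was not tested.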
